A study of Mus musculus with 29 samples.

Results

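Of the 133 LINE-1 subfamilies counted in mouse embryonic stem (ES) cells, 127 have names that do not start with L1Md_, the prefix of the youngest mouse families, and these older subfamilies are described here across 20 RNA-seq libraries. They were chosen by name alone, as elements annotated to the L1 family of the LINE class without that prefix. No measured value entered the rule, but earlier results of these data were known when it was set. They made up 127 of 1153 transposable element subfamilies and of 25574 counted features in all. By name, 33 are rodent (21 that start with Lx, 9 with L1_ followed by Mus, Mur, Rod or Mm, and 3 with L1VL), 87 are older mammalian names (L1M and L1P) and 7 are others (6 HAL1 names and X9_LINE). A narrower rodent class of names starting Lx, L1_Mus or L1_Rod had 26 members, and its median in the Dax1 knockdown was 0.26 on the log2 scale, against 0.25 for the 33.

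LINE-1 elements are retrotransposons that copy themselves through an RNA, using proteins they encode. Successive subfamilies replaced each other during evolution, so the name of a copy tells roughly how old it is: L1Md_A, L1Md_T and L1Md_Gf still hold copies able to move in the mouse, Lx elements spread in the ancestors of mice and rats, and L1M elements are shared by many mammals and survive as short, mutated remnants. HAL1 elements are relatives that carry only the first of the LINE-1 reading frames. In ES cells LINE-1 RNA is abundant, and DNA methylation, H3K9 methylation through TRIM28 and SETDB1, and the HUSH complex hold the elements in check.

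The cells were ES cells of strain 129/Ola, grown on gelatin in serum medium, in 4 experiments of their own counts and controls with 2 libraries in each of 10 groups. The first set wild-type cells against the lines labelled Trim66 KO1 and Trim66 KO2, where Trim66 encodes a chromatin-associated tripartite motif protein. The second set cells with a GFP vector against cells with GFP-TRIM66, the third a control against hairpins sh1 and sh2 that target Dax1 (Nr0b1, a nuclear receptor without a known ligand that mainly represses transcription), and the last a control against cells in which Dax1 and Dux were both knocked down. Dux is the transcription factor that starts the gene programme of 2-cell embryos. The title of the series names an axis of these 3 factors that restrains a 2-cell-like state, a rare state of ES cells. The labels do not say whether the 2 libraries of a group came from separate cultures, so p-values measure the spread between libraries, which may be technical. Nor do they give the promoter of the GFP constructs or how the KO1 and KO2 lines were derived.

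Library totals ran from 12483949 to 17365296 counts. The targeted genes went with the labels for GFP-TRIM66 (3556 and 3267 Trim66 counts, against 27 and 24 with the vector), for the Dax1 hairpins (857 to 1031 Nr0b1 counts, against 2242 and 2179) and for Nr0b1 in the double knockdown (254 and 319, against 680 and 444). They did not for the libraries labelled Trim66 knockout, with 33 to 48 Trim66 counts against 11 and 15 in wild type. A count over a whole gene does not see a small deletion, so these counts check neither line. Dux had 2 and 0 counts in the double knockdown and 0 in both controls, too few to show a fall. The control replicate 2 of that experiment had 87 Trim66 counts where replicate 1 had 4. ES cell markers were high in all 20 libraries, with a summed level of 2874 to 9213 CPM (counts scaled to library size, with TMM factors) over 10 genes, lowest in the double knockdown experiment.

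Older LINE-1 subfamilies took a small and variable share of the RNA. Their summed counts were 0.369% to 0.995% of a library, and 7.90% to 11.1% of all element counts. Rodent names held 57.7% of the members' counts, older mammalian names 41.2% and the other names 1.08%. The 21 Lx names alone held 37.1%, and the 9 L1_ names 19.2%. In mean CPM over the 20 libraries the most counted rodent names were Lx3B (437 ± 145, SD), L1_Mus1 (388 ± 79.3), Lx8 (307 ± 111), L1_Mus3 (208 ± 79.9), Lx (190 ± 37.3) and Lx9 (165 ± 70.8). Among older mammalian names they were L1MEg (333 ± 96.4), L1M4 (205 ± 51.7), L1M5 (128 ± 38.3), L1MB7 (123 ± 33.6), L1M2 (101 ± 44.2) and L1ME1. These are shares of reads: copy number and length were not given, so the order is not one of level per copy or per base. Depth differed between the classes, with a median of 992 counts per library for a rodent name and 206 for an older mammalian one. All 33 rodent names and 67 of the 87 older mammalian names had enough counts to be tested in all 4 experiments. Of the members, 7 could be tested in none, among them L1M2a1, which had no count in any library, while HAL1_SS and L1PB4 never passed 12 counts.

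The control groups of the 4 experiments already differed in how much LINE-1 RNA they held. The members took 0.622% and 0.681% of counts in wild type, 0.995% and 0.793% with the GFP vector, 0.490% and 0.453% in the Dax1 control and 0.397% and 0.394% in the double knockdown control. Control levels therefore spanned a wider range than any change inside the Dax1, KO or double knockdown experiment, and each experiment was read against its own control. In the KO experiment the share was 0.588% and 0.623% in KO1, and 0.818% and 0.656% in KO2. With GFP-TRIM66 it was 0.457% and 0.383%, both below the vector libraries. It was 0.511% and 0.519% with sh1 and 0.534% and 0.576% with sh2, all above the Dax1 controls. In the double knockdown it was 0.405% and 0.369%, on both sides of its controls.

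**Figure D1:**
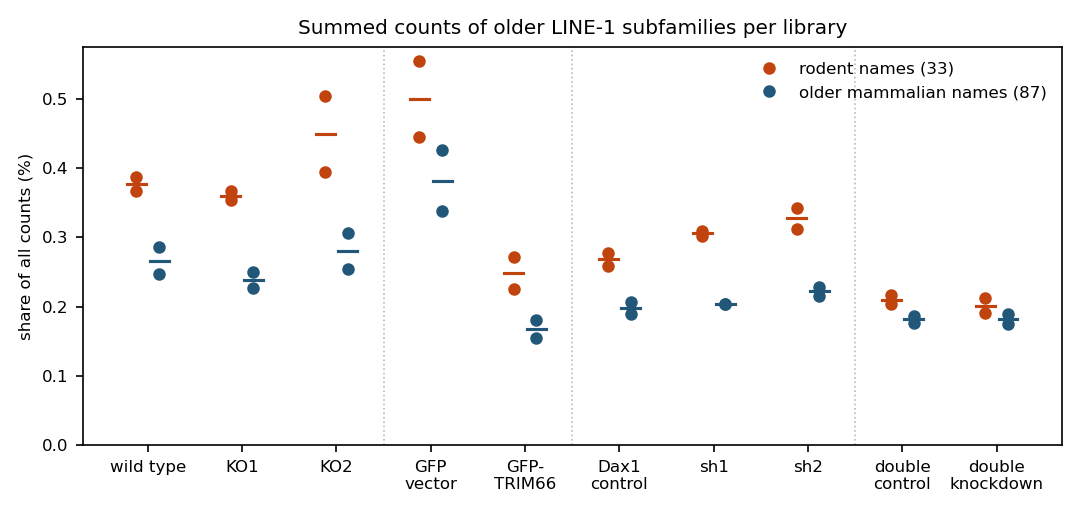
Summed counts of rodent names (orange) and older mammalian names (blue) as a share of all counts in each library, in percent, by group; points are libraries, bars are means of 2 libraries and dotted lines separate the 4 experiments. GFP vector replicate 1 is highest, with members at 0.995% of counts, and both GFP-TRIM66 libraries lie below both vector libraries for both classes.

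The balance between rodent and older mammalian names moved less than the total. Rodent names made up 57.3% (95% Wilson interval 56.9% to 57.7%) and 57.8% of the rodent plus older mammalian counts in the Dax1 controls. They made up 59.7% and 60.3% with sh1 and 59.2% and 60.0% with sh2, so every hairpin library was above both controls. In GFP-TRIM66 cells the share was 60.1% and 59.3%, above the 56.6% and 56.8% of the vector cells. Lx3B alone had 6466 and 5901 counts with GFP-TRIM66, against 5283 and 3991 with the vector. All rodent names together had 47227 and 37001 counts with GFP-TRIM66, against 79832 and 61627. The share without Lx3B is not given, so the higher share is not read as a shift of the rodent class. KO2 (62.2% and 60.7%) lay above wild type (59.8% and 57.5%), and KO1 (60.9% and 59.5%) overlapped it. The double knockdown experiment had the lowest shares, 55.1% and 52.1% in its controls and 52.9% and 52.2% in the knockdown. The intervals cover counting error only, and the wild-type and double knockdown controls each spread over more than their intervals.

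**Figure D2:**
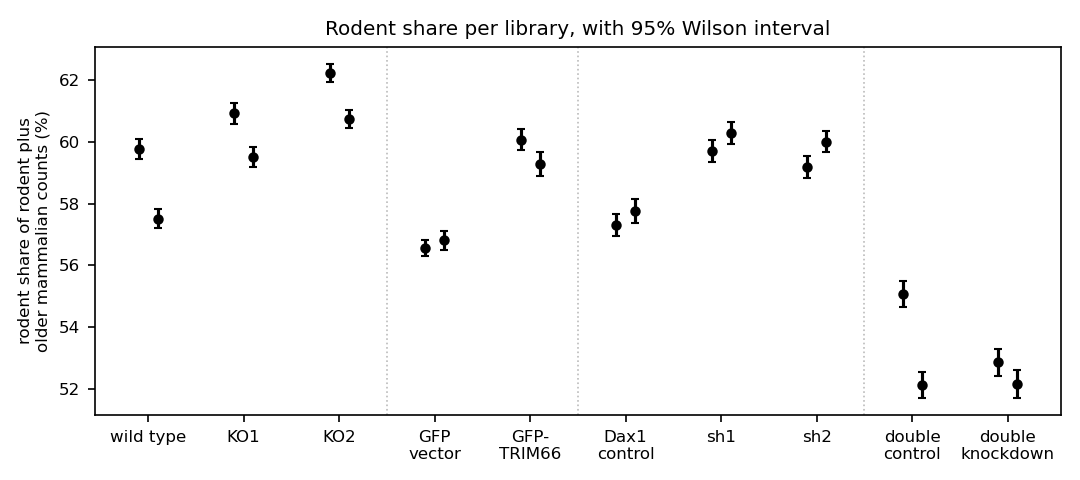
Rodent names as a percentage of rodent plus older mammalian counts in each library, with 95% Wilson intervals, by group; the axis does not start at 0. All 4 Dax1 hairpin libraries (59.2% to 60.3%) lie above their 2 controls (57.3% and 57.8%), and the 4 double knockdown experiment libraries are lowest.

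With the Dax1 hairpins many rodent LINE-1 names rose. Over both hairpins, 20 of 33 rodent names rose and none fell, with a median log2 fold change of 0.25 (edgeR quasi-likelihood test, adjusted p under 0.05). In the same comparison 34.6% of all features tested were called, 16.8% as higher and 17.8% as lower, and their median was 0.01. Of 75 older mammalian names 6 rose and 5 fell, with a median of 0.04, and of 5 other names 2 rose. All 6 L1Md_ names rose as well, with a median of 0.61, above the rodent median. Elements other than LINE-1 had a median of 0.09, with 115 of 708 higher and 26 lower. In total 28 members rose and 5 fell of 113 tested. No set test was made, so the difference between the rodent and the older mammalian class was not itself tested.

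Lx3_Mus, an Lx name from the mouse genus, rose most. It stood at 23.3 and 19.3 CPM in the controls, 47.3 and 43.8 with sh1 and 39.1 and 44.0 with sh2. All 4 hairpin libraries were above both controls with a wide gap, and the log2 fold change was 1.03 ± 0.09 (± SE; adjusted p = 2.66e-10). Lx10 stood at 17.0 and 13.3 CPM in the controls, 25.5 and 25.6 with sh1 and 25.0 and 28.3 with sh2, without overlap. Its log2 fold change was 0.78 ± 0.10 (adjusted p = 7.02e-07).

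Among the more abundant names the rises were smaller and about as regular. L1_Mus1 stood at 356 and 338 CPM in the controls, 403 and 400 with sh1 and 444 and 463 with sh2. The 4 hairpin libraries were all above the controls, with those of sh2 highest, and the log2 fold change was 0.30 ± 0.04 (adjusted p = 9.01e-07). L1_Mus2 stood at 92.6 and 87.4 CPM in the controls, 131 and 118 with sh1 and 117 and 134 with sh2. Its log2 fold change of 0.47 ± 0.06 had an adjusted p of 2.08e-07, and the hairpins overlapped each other but not the controls. The other rodent names with the smallest adjusted p were Lx2 (log2 fold change 0.43), Lx2B2 (0.34), Lx (0.29), L1_Mus3 (0.28) and Lx3C (0.49). By family 8 of 9 L1_ names and 11 of 21 Lx names rose, and 1 of 3 L1VL names. Lx3B, the most counted member, did not pass the test: it stood at 427 and 460 CPM in the controls and between 421 and 463 in the hairpin libraries. Its log2 fold change was -0.01 ± 0.04, and its groups overlapped.

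Older mammalian names were divided. L1MEg rose from 333 and 297 CPM in the controls to 387 and 349 with sh1 and 428 and 440 with sh2, a log2 fold change of 0.34 ± 0.05 (adjusted p = 1.60e-06). It was the only older mammalian name among the 10 members with the smallest adjusted p. HAL1ME, one of the HAL1 relatives, rose by 0.83 ± 0.21 (adjusted p = 0.00288) from a low 2.85 CPM. Among the 5 that fell were L1M4b (log2 fold change -0.29, adjusted p = 0.00719), L1MDb (-0.30, 0.0247), L1M4 (-0.14, 0.0177) and L1MEc (-0.22, 0.0313). L1M4 stood at 175 and 168 CPM in the controls and between 150 and 164 in the hairpin libraries, without overlap. The families L1MB and L1MD had medians of -0.05 and -0.07, and L1MC had a median of 0.17 with 2 of 11 names higher.

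The hairpins differed in how far the older names moved, while sharing their controls. Against control, 43.4% of all features were called with sh1 (22.3% higher, 21.2% lower) and 25.1% with sh2 (12.5% each way). Among rodent names 10 of 33 rose with sh1 (median 0.14) and 26 of 33 with sh2 (median 0.35), and none fell with either. Among 75 older mammalian names 4 rose and 10 fell with sh1 (median -0.11), against 11 and 0 with sh2 (median 0.14). Of the 28 members that rose over both hairpins, 13 were called with sh1 and 28 with sh2. Lx3_Mus rose by 1.09 with sh1 and 0.96 with sh2, and Lx10 by 0.75 and 0.81 on the log2 scale. Compared directly, sh2 was above sh1 for 33 members and below it for 2 of 113, where 36.4% of all features were called, 18.2% each way. The 33 held 14 rodent and 19 older mammalian names, with class medians of 0.18 and 0.22 (0.17 for elements other than LINE-1). L1MEc differed by 0.47 ± 0.10 (adjusted p = 0.000324): it stood at 25.2 and 26.8 CPM with sh1, 36.5 and 35.3 with sh2 and 38.9 and 32.2 in the controls. Lx3_Mus, Lx10, L1_Mus2 and Lx2 did not pass the test between hairpins, with differences between -0.13 and 0.06.

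**Figure D3:**
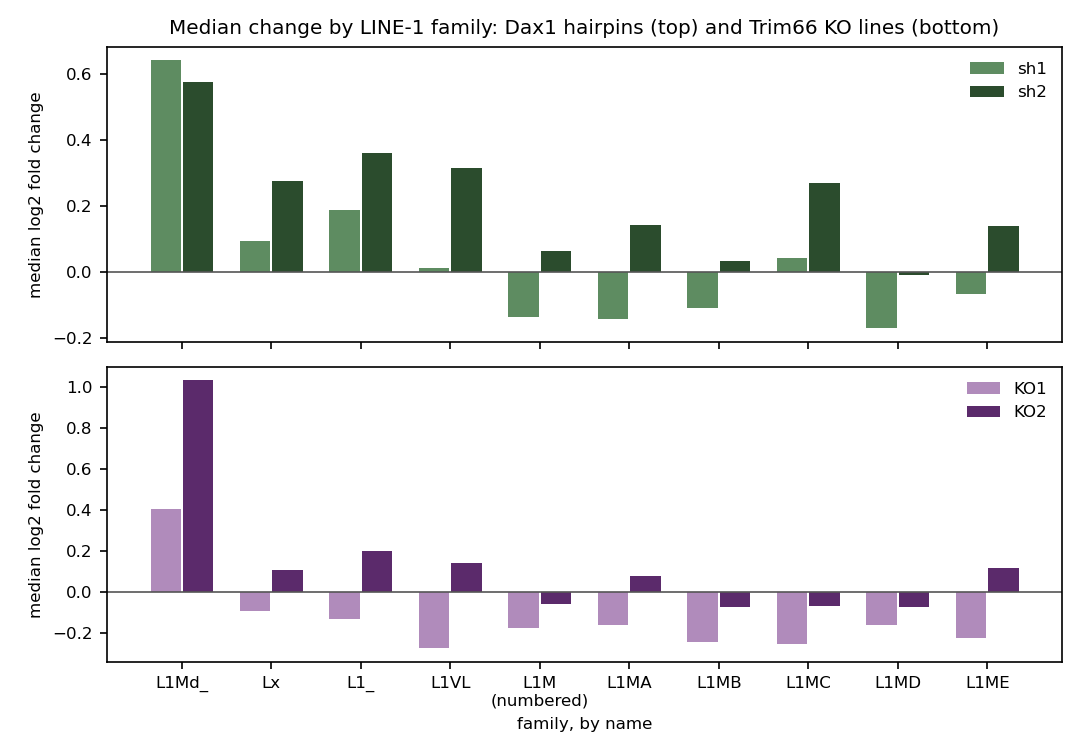
Median log2 fold change of the tested members of each LINE-1 family, by family name, against the control of the experiment: Dax1 hairpins sh1 and sh2 above, lines KO1 and KO2 below; L1Md_ is shown for comparison and L1P, with 1 tested name in the KO experiment, is left out. With both hairpins the medians of L1Md_, Lx and L1_ lie above 0, while L1MA and L1MB lie below 0 with sh1 and above 0 with sh2.

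The number of rises depended on single libraries. Without control replicate 2, 13 members were called higher in place of 28 (11 of them rodent; 22.2% of all features called), and without sh2 replicate 2, 18 (30.7% called). With sh2 alone against control, the same omissions gave a median over all members of 0.16 and 0.18, in place of 0.21. Fewer members and fewer of all features were called in both. Dax1 hairpin 1 libraries also held more RNA of fibroblast genes, a summed 47.3 and 52.2 CPM over 10 genes against 19.5 and 17.3 in the controls and 18.1 and 18.3 with sh2. That sum was chiefly Col1a1, with Lum, Postn and Dcn at 0.628 CPM or less, and its part in the result was not tested. The sum of 8 primitive endoderm genes was 82.2 and 84.4 CPM with sh2, against 46.2 and 51.9 in the controls and 41.3 and 42.7 with sh1. It was chiefly Lama1, at 57.9 and 62.2 CPM with sh2, 35.4 and 38.5 in the controls and 27.2 and 27.7 with sh1. RNA of 68 histone genes summed to 55.4 to 66.7 CPM in the 4 hairpin libraries and to 36.1 and 40.9 in the controls. The part of either in the result was not tested. In bulk RNA a change in the number of cells that express an element cannot be told apart from a change of RNA per cell.

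**Figure D4:**
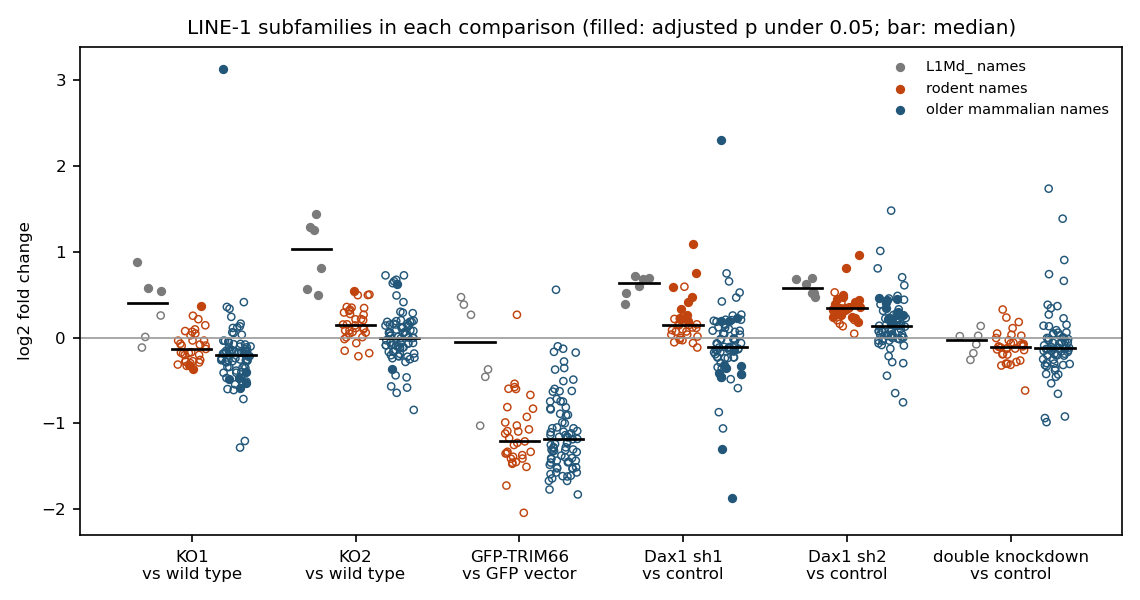
Log2 fold change of every tested L1Md_ (grey), rodent (orange) and older mammalian (blue) name in 6 comparisons; each point is a subfamily, filled where its adjusted p is under 0.05, and black bars are medians. Rodent names are above 0 with sh2 for all 33, and nearly every point lies below 0 with GFP-TRIM66, where none is filled.

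In the lines labelled Trim66 KO1 and KO2 the older LINE-1 names changed little while the L1Md_ names rose. Over both lines 3 members rose and 3 fell of 117 tested, where 23.4% of all features were called, 12.7% higher and 10.7% lower. Rodent names had 1 rise and no fall of 33 (median log2 fold change 0.01), and older mammalian names 2 rises and 3 falls of 79 (median -0.12). The L1Md_ names had 4 rises of 6 and a median of 0.73. L1M4 had the smallest adjusted p: the wild-type libraries had 263 and 301 CPM, those of KO1 178 and 198, and those of KO2 213 and 225. All 4 KO libraries were below both wild-type libraries, with a log2 fold change of -0.47 ± 0.09 (adjusted p = 0.00428). L1MB2 fell likewise, from 78.5 and 82.9 CPM to 56.0 and 60.5 in KO1 and 71.8 and 63.7 in KO2 (log2 fold change -0.36, adjusted p = 0.0171). L1MEc was the last of the 3 that fell (-0.31, adjusted p = 0.0478), from 51.8 and 61.4 CPM in wild type to 38.0 and 40.6 in KO1, while KO2 overlapped wild type at 54.0 and 52.3. Its fall was thus one of KO1 (log2 fold change -0.53, adjusted p = 0.00751), and its value in KO2 was -0.09 (adjusted p = 0.654). The summed level of 8 primitive endoderm genes was 156 and 147 CPM in the wild-type libraries, 68.7 and 67.3 for line KO1 and 87.1 and 85.7 for line KO2, chiefly Lama1, and its part in these values was not tested.

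The 3 members that rose over both lines had unlike patterns. L1ME4a had 31.7 and 34.8 CPM in the wild-type libraries, 40.4 and 44.8 in those of KO1 and 57.8 and 44.7 in those of KO2, so each was above wild type (log2 fold change 0.49, adjusted p = 0.0193). Lx4A stood at 51.9 and 52.0 CPM in wild type and between 62.0 and 71.8 in the KO libraries (0.34, adjusted p = 0.0284). L1MEg2 was rare, at 0.287 and 0.268 CPM in the wild-type libraries, 2.88 and 2.13 in those of KO1 and 0.684 and 0.234 in those of KO2. Its rise was thus one of KO1, where its log2 fold change was 3.13 ± 0.53 (adjusted p = 0.00196), and KO2 overlapped wild type. Of these 6 calls only that of L1M4 held without any 1 of the 4 KO libraries and without wild-type replicate 1, and its adjusted p was 0.0687 without wild-type replicate 2. The calls thus rested on the wild-type and the KO1 libraries, and without any 1 of these fewer of all features were called as well. The median of all members was -0.16 without wild-type replicate 1 and 0.01 without wild-type replicate 2, in place of -0.06. It was -0.05 without KO1 replicate 1 and -0.12 without KO1 replicate 2.

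The lines, set side by side against the same wild type, differed in level. In KO1 2 members rose and 7 fell (31.2% of all features called, 17.4% higher and 13.8% lower), with medians of -0.13 for rodent and -0.20 for older mammalian names. The falls in KO1 included Lx8 (log2 fold change -0.32, adjusted p = 0.0340), L1_Rod (-0.36, 0.0467), L1MA8 (-0.49, 0.0210) and L1MC2. In KO2 2 members rose and 1 fell (11.7% of all features called, 6.45% higher and 5.29% lower), with medians of 0.15 and 0.00. Those of KO2 were L1ME4a (0.62), Lx3_Mus (0.54 ± 0.14, adjusted p = 0.0306) and L1M4 (-0.36). All 6 L1Md_ names rose in KO2 and 3 in KO1. Compared directly, 7 members had a higher level in KO2 and 1 a higher level in KO1 (23% of all features called, 10.1% higher and 13% lower), 5 of the 7 being rodent: L1_Mus3, L1_Mur3, L1_Mur1, L1VL1 and Lx6. L1_Mus3 stood at 220 and 237 CPM in KO1 and 354 and 285 in KO2, with 242 and 259 in wild type between them.

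KO2 replicate 1 stood apart from the other KO libraries. Its Lx3B level was 954 CPM, against 436 in KO2 replicate 2 and 425 to 560 in the other 4 libraries. Lx5 was at 286 CPM there and 139 to 163 in the other 5, and L1MEg at 486 and 243 to 325. Without that library KO2 was above KO1 for 9 members and below it for 2 (24.7% of all features called). Without KO2 replicate 2 the median difference between the lines over all members was 0.37, and without KO1 replicate 1 or 2 it was 0.20 and 0.31. Without either KO1 library fewer members and fewer of all features were called. For KO1 against wild type 27 members fell without KO2 replicate 1 and 31 without KO2 replicate 2, which enter that test through the shared spread, and 42.9% of all features were called in both of these fits. Without wild-type replicate 2 the median of all members in KO1 was -0.11, in place of -0.18, and fewer members and fewer of all features were called. Without KO2 replicate 1 the median difference between the lines over all members was 0.14, in place of 0.26.

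The names that rose with the Dax1 hairpins were also read in the other experiments, which have controls of their own. Of the 20 rodent names, 18 were above 0 in KO2 (median 0.21), where 28 of all 33 rodent names were, and 1 of them, Lx3_Mus, was called. In KO1 6 of the 20 were above 0 (median -0.09), 1 called higher and 1 lower. With GFP-TRIM66 none was above 0, and in the double knockdown 4 were (median -0.11), none called in either. Over the 4 main comparisons L1M4, L1MEc and Lx4A were called in 2, the Dax1 knockdown and the KO mean, each in the same direction in both. For L1MEc those calls rest on KO1 and sh1, since its log2 fold change was -0.09 in KO2 (adjusted p = 0.654) and 0.01 with sh2 (adjusted p = 0.953). Lx4A overlapped its controls in the Dax1 experiment and was not called in KO2 (0.31, edgeR adjusted p = 0.0904). Its call held in 6 of 11 alternatives for the Dax1 mean and in 5 of 11 for the KO mean. Another 33 members were called in 1 main comparison, and 91 in none. How many of all features were called in both the Dax1 and the KO mean was not counted, so the overlap is not read as a result.

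**Figure D5:**
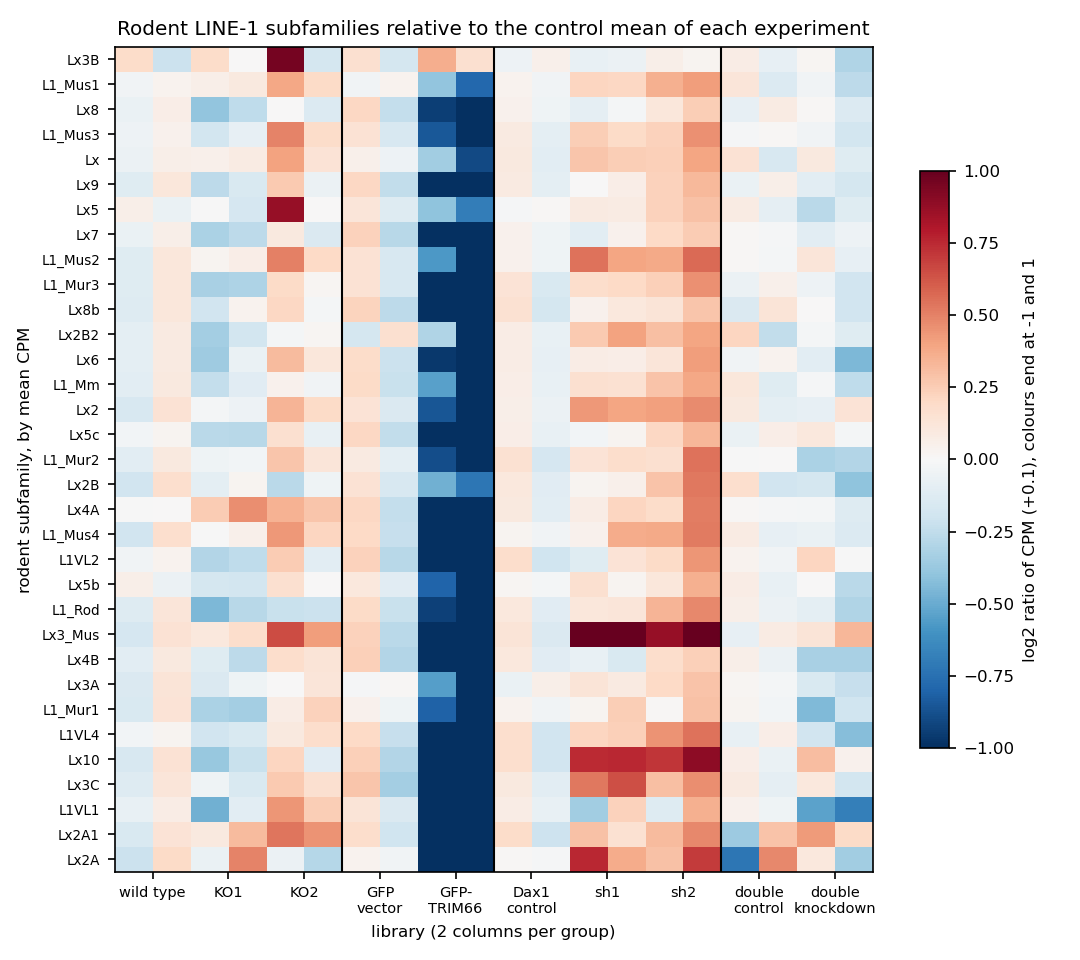
Log2 ratio of CPM to the mean of the control libraries of the same experiment for the 33 rodent names (rows, ordered by mean CPM) in the 20 libraries (columns, 2 per group); colours end at -1 and 1 and black lines separate the experiments. Lx3_Mus and Lx10 are darkest with both Dax1 hairpins, Lx3B and Lx5 are high in KO2 replicate 1, and the GFP-TRIM66 columns are low for all rows except Lx3B.

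With GFP-TRIM66 the levels of nearly all older LINE-1 names were lower than with the GFP vector, but none passed the test after adjustment. Of 119 tested members 117 had a fold change below 0, with a median log2 fold change of -1.22 (-1.21 for rodent and -1.19 for older mammalian names). In 111 of them both GFP-TRIM66 libraries lay below both vector libraries, as did 26.2% of all features, and at an unadjusted p under 0.05 92 were lower and 0 higher (9.05% of all features were lower by that rule and 7.66% higher). Only 0.0199% of all features passed the adjusted threshold in edgeR, 0.0133% higher and 0.00663% lower, and DESeq2 called 52 members lower, where it called 3.83% of all features. Lx8 stood at 622 and 458 CPM with the vector and 281 and 216 with GFP-TRIM66, a log2 fold change of -1.12 ± 0.26 (adjusted p = 0.163). L1MEg stood at 415 and 545 CPM with the vector and 205 and 145 with GFP-TRIM66 (-1.46 ± 0.27, adjusted p = 0.163). Lx2A1, a rare name, had the lowest value, -2.04 ± 0.40 (adjusted p = 0.163). Lx3B went the other way, at 352 and 280 CPM with the vector and 406 and 354 with GFP-TRIM66 (0.27, adjusted p = 0.564).

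The lower level was shared by other elements. Elements other than LINE-1 had a median log2 fold change of -1.06, the 4 L2 names -0.75, the 4 MIR names -0.67 and DNA transposons -1.25, and the 6 L1Md_ names -0.05. Scaled to elements other than LINE-1, the median of the members was -0.34 and that of all features 0.86. Under that scaling 2 members were called higher, where 31.6% of all features were called. The vector libraries also held more nuclear RNA, a summed 1231 and 1170 CPM over 12 nuclear RNAs, where the other 18 libraries ran from 487 to 716. Malat1, the largest of them, was at 762 and 512 CPM with the vector and 238 and 180 with GFP-TRIM66. Neat1, Meg3, Kcnq1ot1 and Snhg11 were also higher in both vector libraries than with GFP-TRIM66. The rest of the list overlapped, with Rian at 134 and 212 CPM with the vector and 185 and 145 with GFP-TRIM66. The part of nuclear RNA in the result was not tested. Without vector replicate 2, 45 members were called lower, where 4.83% of all features were called, and without GFP-TRIM66 replicate 1, 17, where 0.596% were.

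In the double knockdown of Dax1 and Dux none of 107 tested members passed the test, where 0.104% of all features did (0.0904% higher, 0.0139% lower). At an unadjusted p under 0.05 2 members were higher and 3 lower, as were 6.1% and 4.8% of all features, and DESeq2 called none. The median log2 fold changes were -0.11 for rodent and -0.12 for older mammalian names, and scaled to elements other than LINE-1 both were 0.11, with the median of all features then at 0.23. Lx3_Mus stood at 16.0 and 17.9 CPM in the controls and 18.5 and 21.3 in the knockdown, without overlap (log2 fold change 0.23 ± 0.18, adjusted p = 0.628). L1_Mus1 stood at 318 and 266 CPM in the controls and 284 and 244 in the knockdown, with overlap (-0.15 ± 0.16, adjusted p = 0.727). L1M4 stood at 138 and 212 CPM in the controls and 225 and 227 in the knockdown, so that 1 control library decided its value (0.37 ± 0.22). Whether these effects differ from those of the Dax1 hairpins was not tested. The biological coefficient of variation in this experiment was 0.189, above the 0.0392 of the Dax1 experiment and the 0.102 of the KO experiment and below the 0.283 of the GFP experiment. Without control replicate 2, 4 members were higher and 6 lower, where 32.8% of all features were called. The fibroblast sum was 81.6 and 91.3 CPM in the knockdown and 11.9 and 23.3 in the controls. In the knockdown it was chiefly Col1a1 (45.5 and 54.9 CPM), with Lum and Postn at 0.316 CPM or less. Dcn stood at 0.395 and 0.307 CPM there, against 0.727 and 0.378 in the controls. The part of this sum in the values above was not tested.

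Of 49 genes listed as regulators of LINE-1 elements 48 were tested. In the mean of the Dax1 hairpins 8 were higher and 16 lower, and in the KO mean 5 higher and 6 lower, against 34.6% and 23.4% of all features called. The falls were mostly those of sh1. Against control 7 were higher and 22 lower with sh1 (43.4% of all features called), and 8 and 7 with sh2 (25.1%). Dnmt3l, the cofactor of the enzymes that set new DNA methylation, was at 489 ± 22.8 CPM in the hairpin libraries (SD, n = 4) and 270 ± 1.21 in the controls (n = 2). Its log2 fold change was 0.86 ± 0.04 (edgeR adjusted p = 1.02e-14), and in the KO mean it rose by 1.20 ± 0.09 (edgeR adjusted p = 3.68e-05). In the mean of both hairpins Dnmt3a rose too (log2 fold change 0.41). Tet1, an enzyme that oxidises methylated DNA (-0.48), Sox2 (-0.33) and Suz12 of Polycomb complex PRC2 (-0.31) fell in that mean. Sox2 stood at 538 and 569 CPM in the controls, 377 and 370 with sh1 and 512 and 527 with sh2. In the KO mean Dnmt3b (1.27) and Mov10, an RNA helicase that restrains retroelements (0.40), rose, and Tet2 (-0.45) fell. Ncl, which encodes nucleolin, a binding partner of LINE-1 RNA in ES cells, fell from 4105 ± 44.9 to 2784 ± 126 CPM (log2 fold change -0.56 ± 0.08, edgeR adjusted p = 0.000772). With GFP-TRIM66 and in the double knockdown none of the 48 was called.

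Across the 20 libraries, with log2 CPM centred within each experiment, the elements outside LINE-1 most like 4 abundant members differed by member. For Lx8 they were the SINEs PB1D10 (Pearson r = 0.99), B4A (0.99) and RSINE1 (0.98). For L1_Mus1 they were MMTV-int (0.93), RLTR9E (0.91) and B2_Mm1a (0.90), and for L1MEg MTA_Mm (0.92), MMTV-int (0.91) and LTRIS_Mus (0.89). For Lx3B the highest was RLTR30D_RN at 0.62. These values describe 20 libraries and 578 elements that share depth and the GFP vector libraries, where most elements were high, and carry no test.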

How the data were processed

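Raw read counts for 20 RNA-seq libraries came in 4 deposited tables, in rows for genes and for transposable element subfamilies, per the file headers. The submitters' processing notes list HISAT2 2.1.0, Cufflinks 2.2.1, Bowtie2, Trim Galore, MACS2, deepTools and DiffBind for the series, and the mm10 build. Counting tool, strandedness and the treatment of reads that map to many copies: not given in the sources used here. Reads of similar subfamilies can therefore be split in ways the tables do not show, and reads of an element's own transcript cannot be told apart from reads of an old copy inside a gene's intron or untranslated region. The series also holds 9 chromatin immunoprecipitation samples, not used here.

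The 4 experiments were fitted separately in R 4.3.3 with edgeR 4.0.16 (genes and elements together, filterByExpr, TMM scaling, quasi-likelihood F test, Benjamini-Hochberg adjustment over all features, calls at an adjusted p under 0.05). KO and Dax1 effects are means of both lines or hairpins. CPM are TMM-scaled. The steps were tested on simulated data. The 27 gene rows whose names had become dates were counted as genes. DESeq2 1.42.0, no filter, other scalings, a replicate block and leaving out each library were alternatives.

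Members and lists were chosen with earlier results of these data known. Named members are the 6 most counted of each class, up to 10 called with the smallest adjusted p and the 3 largest rises and falls (mean of at least 2 CPM) per comparison, and those called in 2 or more experiments; Lx5 appears also because its values in KO2 replicate 1 were seen. For the regulators, up to 5 called genes per comparison are named.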

Additional observations from a re-analysis of the deposited data

Results flagged for a closer look

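Named members whose effects differed between the lines KO1 and KO2, which share their wild type, by the direct test of the difference (edgeR adjusted p under 0.05) were L1MEg2, with a log2 difference of KO2 minus KO1 of -2.50, L1_Mus3 (0.48), L1_Mur3 (0.42), L1MEc (0.44), L1_Mur1 (0.48), L1VL1 (0.62), L1MA9 (0.49) and Lx6 (0.42). The 7 calls of a higher level in KO2 depended on both KO1 libraries, and that of L1MEg2 on KO1 replicate 1. Without either KO1 library fewer of all features were called as well. The median difference over all members was 0.20 without KO1 replicate 1 and 0.31 without KO1 replicate 2, in place of 0.26.

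Between the Dax1 hairpins, as sh2 minus sh1, the differences were 0.39 for L1MCa, 0.47 for L1MEc, 0.94 for L1MEb, 0.24 for Lx8, 0.37 for Lx2B, 0.24 for L1MEg, 0.26 for Lx7, -2.96 for L1M6B (from at most 1.54 CPM in any library of that experiment), 0.24 for Lx9 and 0.28 for Lx5c. The libraries' fibroblast RNA was higher with sh1, and their primitive endoderm RNA, chiefly Lama1, was higher with sh2. The part of either in these differences was not tested.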

How the results depend on the processing

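The 10 members with the smallest adjusted p in the Dax1 knockdown and HAL1ME were called in all 11 alternatives. Counts of members called moved by over 1.5 times as follows, with the share of all features called given in percent. The causes were not tested. In the Dax1 mean (28 higher, 5 lower, 34.6%), DESeq2 called 16 and 2 (23.1%), and scaling to elements other than LINE-1 gave 16 higher (31.1%). For sh1 DESeq2 gave 3 lower (30.4%) in place of 10 (43.4%). For sh2 (39 and 0, 25.1%), DESeq2 gave 20 higher (14.9%), and the other-element scaling 17 higher and 3 lower (26.2%). No filter gave 2 lower (19.4%) and the replicate block 2 lower (27.7%). For sh2 against sh1 (33 and 2, 36.4%), DESeq2 gave 13 and 1 (24.5%), and the other-element scaling 7 and 4 (31.3%). In the KO mean (3 and 3, 23.4%), DESeq2 gave 1 higher (18.6%) and no filter 6 and 6 (21.3%). The other-element scaling gave 1 lower (20.8%) and the replicate block 6 lower (27.8%). For KO1 (2 and 7, 31.2%), DESeq2 gave 1 higher (25.2%), no filter 15 lower (27%) and TMM from genes alone 11 lower (31.6%). The other-element scaling gave 2 lower (28.1%) and the replicate block 16 lower (35.8%). For KO2 (2 and 1, 11.7%), no filter gave 7 higher (14.4%) and the other-element scaling 0 lower (12.8%). For KO2 against KO1 (7 and 1, 23%), no filter gave 22 higher (21.8%), the other-element scaling 2 (23%) and the replicate block 18 (29%). With GFP-TRIM66, DESeq2 gave 52 lower (3.83%) and the other-element scaling 2 higher (31.6%), where the main fit called 0.0199% of all features.

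Leaving out 1 library at a time gave 13 to 29 higher and 1 to 5 lower in the Dax1 mean, 9 to 19 and 3 to 11 for sh1, 16 to 41 and 0 to 1 for sh2, and 14 to 35 and 1 to 2 for sh2 against sh1. It gave 0 to 10 higher and 0 to 12 lower in the KO mean, 1 to 3 and 1 to 31 for KO1, 0 to 15 and 0 to 4 for KO2, 0 to 45 and 0 to 2 for KO2 against KO1. It gave 0 to 45 lower with GFP-TRIM66, and 0 to 4 higher and 0 to 6 lower in the double knockdown. A lone library left in a group is assumed to vary like those of the other groups.

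The log2 fold change of L1M3e in KO2 against KO1 turned to 0.078 without KO2 replicate 1, over a leave-one-out range of -0.96 to 0.078. With GFP-TRIM66, L1MDb turned to 0.80 and L1M4 to 0.27 under the other-element scaling, and L1MDb to 0.25 without vector replicate 1, over a leave-one-out range of -0.34 to 0.25. In the double knockdown, Lx4A turned to 0.15 under that scaling. None of the 5 was called in either fit. Libraries with the same replicate number did not regularly deviate together across groups (correlations of -0.60 with GFP-TRIM66 and -0.016 to 0.30 elsewhere), so the number is not read as a pairing. Depth limits the 7 members tested nowhere and most rare L1M names.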
